A study of Mus musculus with 18 samples.

Results

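The genes described here make, break down or bind oxysterols, the hydroxylated forms of cholesterol. They are 6 of the 30530 rows of a count table of mouse macrophage RNA, each taken by an exact match of its symbol: Ch25h, Cyp27a1, Cyp7b1, Hsd3b7, Gpr183 and Osbp. All 6 were in the table, and 5 of them had enough reads to be tested. Cyp7b1 did not, and its counts are given as they stand.

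Oxysterols carry signals between cells and report the cholesterol content of a cell. Ch25h, in the endoplasmic reticulum, turns cholesterol into 25-hydroxycholesterol (25HC), and Cyp27a1, in mitochondria, makes 27-hydroxycholesterol. Cyp7b1 adds a further hydroxyl group to either product, Hsd3b7 then oxidises the result and so ends its life as a ligand, and Gpr183 (EBI2) is the receptor that moves immune cells along gradients of that ligand. Osbp binds 25HC and moves cholesterol and a phosphoinositide between the endoplasmic reticulum and the Golgi. In macrophages Ch25h is known as a gene that Toll-like receptor ligands and interferon switch on.

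The cells were macrophages grown from bone marrow (BMDM), in 6 groups of 3 libraries, and each library carries a mouse number from 1 to 3. From C57BL/6 (B6) mice there were untreated cells at rest, cells given 5 µM 25HC for 18 h, cells stimulated with PAM3 (Pam3CSK4, a synthetic lipopeptide that Toll-like receptor 2 recognises) at 300 ng/mL, and cells given 25HC first and PAM3 afterwards. From Ch25h-/- mice, in which Ch25h is deleted, there were untreated cells at rest and cells given PAM3. The labels give PAM3 a stimulation time of 18 and the unstimulated cells 0, without a unit, and whether resting cells were kept in culture as long is not known here. No Ch25h-/- library in this set was given 25HC. Titles of the resting libraries without 25HC, in both genotypes, add the words 25-hydroxycholesterol control, and those of the PAM3 libraries do not. What was done to cells so titled is not known here, and they are called untreated. Within a genotype a mouse number was read as marking 1 animal across groups, and the B6 and Ch25h-/- mice of 1 number are different animals. P-values measure the spread between libraries of these numbered mice.

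Library totals ran from 14040513 to 150440297 counts, and mitochondrial genes took 1.11 to 2.13% of them. All 10 macrophage markers checked were found in every library, with a summed level of 21221 to 60021 CPM (the usual depth-scaled read count, here with library totals scaled by TMM factors). Of the 8 neutrophil markers checked, S100a8, S100a9 and Ltf reached 16.5, 27.2 and 19.9 CPM in their highest library, and Camp 1.88. Ly6g, Mpo, Elane and Cxcr2 reached only 0.137, 0.446, 0.274 and 0.206 CPM, so the sum rests on few genes and does not show neutrophils as such. Summed neutrophil markers were at 2.36 to 9.31 CPM in the B6 libraries and at 10.9 to 66.1 CPM in the Ch25h-/- libraries. The highest was Ch25h-/- at rest, mouse 2, and mouse 2 stood apart from the others on the third principal component (7.93% of the variance) in all 3 resting groups, at 31.3 against -18.9 and -1.31 in B6, at -17.3 against -45.8 and -45.1 with 25HC, and at 75.6 against -2.10 and 9.97 in Ch25h-/-. These are bulk samples, so fewer cells of a type and less RNA per cell cannot be told apart.

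The stretch upstream of 4 of the genes is shown first, because these 4 give the main patterns. Ch25h and Cyp27a1 varied most between B6 mice among the tested members, and Gpr183 and Cyp27a1 fell furthest under PAM3. Osbp was the one member that passed the main test for 25HC, which did not pair libraries by mouse. Each window holds the 250 bases before the RefSeq start (GRCm38.p6), 5′ to 3′, ended earlier where the GENCODE gene begins further upstream, and RefSeq windows matched 5 of the 6 members.
Ch25h, chr19:34475165-34475398, minus strand: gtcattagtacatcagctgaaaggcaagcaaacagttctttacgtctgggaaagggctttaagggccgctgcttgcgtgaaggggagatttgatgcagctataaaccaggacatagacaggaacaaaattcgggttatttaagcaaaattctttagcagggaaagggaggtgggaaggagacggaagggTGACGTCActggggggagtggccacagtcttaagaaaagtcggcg
Cyp27a1, chr1:74713285-74713534, plus strand: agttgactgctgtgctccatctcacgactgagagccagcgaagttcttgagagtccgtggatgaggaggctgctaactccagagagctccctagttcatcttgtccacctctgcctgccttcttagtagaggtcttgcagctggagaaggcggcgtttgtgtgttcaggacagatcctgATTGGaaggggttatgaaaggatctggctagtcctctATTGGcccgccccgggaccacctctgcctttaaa
Osbp, chr19:11965594-11965843, plus strand: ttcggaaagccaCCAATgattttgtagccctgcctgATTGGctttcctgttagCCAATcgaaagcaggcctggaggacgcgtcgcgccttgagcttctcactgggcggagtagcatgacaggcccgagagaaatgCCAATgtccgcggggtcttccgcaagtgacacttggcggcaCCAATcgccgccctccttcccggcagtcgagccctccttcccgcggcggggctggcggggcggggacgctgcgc
Gpr183, chr14:121965196-121965443, minus strand: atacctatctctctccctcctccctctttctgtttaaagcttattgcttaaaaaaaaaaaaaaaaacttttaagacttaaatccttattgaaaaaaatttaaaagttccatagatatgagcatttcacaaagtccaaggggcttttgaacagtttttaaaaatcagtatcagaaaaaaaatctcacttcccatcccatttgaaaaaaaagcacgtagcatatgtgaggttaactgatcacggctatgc
Capitals mark TGACGTCA, a cyclic AMP response element, in the Ch25h window, and CCAAT or its reverse ATTGG, the CCAAT box, in the Cyp27a1 and Osbp windows. On either strand, 8 motifs were searched. They were these 2 and TGANTCA (AP-1), GAAANNGAA (interferon-stimulated response element core), GGNNNTTCC (NF-kB-like), TCACNCCAC (sterol regulatory element-like), AGGTCA (nuclear receptor half-site) and CACGTG (E-box). Ch25h had 1 TGACGTCA, at 61 to 54 bases before the RefSeq start, which lies beyond the end of the 234 bases printed. Of 32841 mouse windows of 250 bases, 1.55% hold that motif. Cyp27a1 had 2 CCAAT boxes and Osbp had 5. At least 1 CCAAT box is found in 33.9% of windows, and 5 or more in 70 windows (0.213%). Osbp also had 1 GGNNNTTCC, which 15.7% of windows hold. The Gpr183 and Hsd3b7 windows matched none of the 8, as did 37.9% of all windows. The Gpr183 window was poor in G and C (32% against a median of 52.4%), and 2.58% of windows were at or below it. A match is a run of letters, not a shown binding site, and the lack of one says nothing about a factor.

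**Figure D1:**
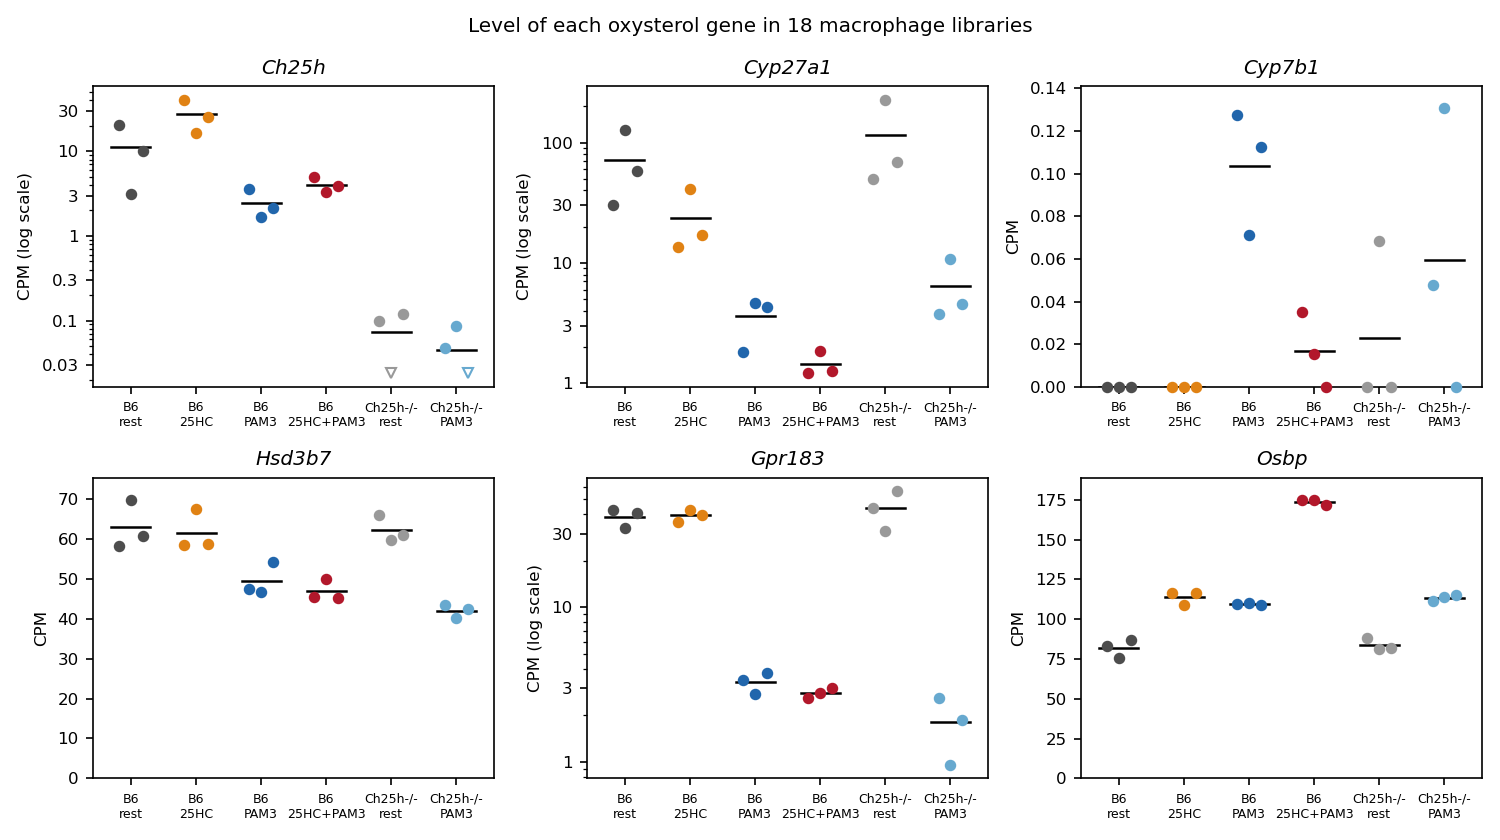
Level of each of the 6 genes in the 18 libraries, in CPM, by group; points are libraries, lines are group means, and open triangles, drawn below the lowest value, mark libraries without a read on a log axis (Ch25h, Cyp27a1 and Gpr183). Gpr183 and Cyp27a1 drop under PAM3 in all 3 pairs of groups, and Osbp is highest with 25HC and PAM3 together.

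Ch25h (ENSMUSG00000050370, chr19:34473778-34475164, minus strand, GRCm38) has 1 exon block, and it is the gene that Ch25h-/- mice lack. In B6 at rest it stood at 20.4, 3.16 and 10.2 CPM in mice 1, 2 and 3. In Ch25h-/- cells at rest it had 2, 0 and 2 reads in all, and with PAM3 1, 2 and 0. Ch25h was thus nearly unread in all 6 libraries labelled Ch25h-/-. The B6 level over the group was 117-fold that of Ch25h-/- at rest (95% interval for counting error 45.4 to 428) and 45.5-fold with PAM3 (15.5 to 221). In the edgeR test over all genes both differences passed (adjusted p = 0.00955 and 0.0383), but the call was lost at rest without Ch25h-/- mouse 2 or 3 (0.0759 and 0.117) and with PAM3 without B6 mouse 1 or 3 (0.0896 and 0.109) or Ch25h-/- mouse 2 or 3 (0.232 and 0.147). The labels do not say which bases of the gene are missing.

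With PAM3 the B6 level of Ch25h was lower, at 3.55, 1.66 and 2.14 CPM. Every mouse had less Ch25h with PAM3 than at rest, but the groups overlapped, since mouse 2 at rest was below mouse 1 with PAM3. The fall was 2.21 ± 0.53 on the log2 scale (SE), with an adjusted p of 0.00195 (edgeR quasi-likelihood test, Benjamini-Hochberg over 12741 genes). Without B6 at rest, mouse 1, the log2 change was -1.46 and still passed at 0.05 (adjusted p = 0.0158, edgeR). In cells given 25HC the levels were 40.8, 16.3 and 25.8 CPM at rest and 4.92, 3.26 and 3.86 CPM with PAM3. These groups did not overlap, and the log2 change of Ch25h with PAM3 was -2.79 ± 0.53 (adjusted p = 0.000345, edgeR). Of all tested genes, 989 fell further in untreated cells and 694 in 25HC-treated cells.

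Ch25h stood higher in cells given 25HC than in untreated cells of the same mouse, 2.00-fold, 5.14-fold and 2.54-fold at rest and 1.38-fold, 1.96-fold and 1.81-fold with PAM3. The groups overlapped in both cases. At rest the log2 difference was 1.31 ± 0.50 (95% interval 0.24 to 2.37) and did not pass the test (adjusted p = 0.0653, edgeR). With the mouse as a replicate block it was 1.47 and passed (adjusted p = 0.0047, edgeR). It also passed without untreated mouse 1 (2.06, adjusted p = 0.00926, edgeR) or without 25HC-treated mouse 2 (1.58, adjusted p = 0.0367, edgeR). With PAM3 it was 0.73 ± 0.52 (adjusted p = 0.264, edgeR), and the block did not change that call (adjusted p = 0.0636).

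A transcript runs the other way at this locus. Gm26902, annotated as a lncRNA of a bidirectional promoter on the plus strand, shares 159 exon bases with Ch25h, and it is named here after its values were seen. Its level was 2.38, 0.794 and 1.54 CPM in B6 at rest, 4.28, 2.88 and 3.31 with 25HC, 0.460, 0.342 and 0.281 with PAM3, and 0.597, 0.427 and 0.809 with both. Gm26902 was higher with 25HC at rest (log2 1.18 ± 0.38, adjusted p = 0.0344, edgeR) and lower with PAM3 in untreated B6 (log2 -2.09 ± 0.42, adjusted p = 0.000532, edgeR), in groups that did not overlap. In Ch25h-/- cells it was still present, at 1.88, 1.03 and 1.97 CPM at rest and 0.955, 0.349 and 0.790 with PAM3. There it was also lower with PAM3 (log2 -1.24 ± 0.45, adjusted p = 0.0259, edgeR), and its log2 difference from B6 was 0.09 ± 0.41 at rest (95% interval -0.77 to 0.95) and 0.94 ± 0.47 with PAM3 (-0.05 to 1.94), of which neither passed (adjusted p = 1.00 and 0.377, edgeR). The kit was stranded, per the labels, but the strand setting of the counting is not stated there, so the assignment of reads over the shared bases is uncertain.

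Cyp27a1 (ENSMUSG00000026170, chr1:74713574-74737892, plus strand) makes 27-hydroxycholesterol and had the largest log2 change among the tested members under PAM3 in both pairs of B6 groups. In B6 at rest it was at 30.1, 128 and 58.1 CPM, and with PAM3 at 1.81, 4.64 and 4.30 CPM. Groups did not overlap, and each mouse was lower by 16.6-fold, 27.7-fold and 13.5-fold. The log2 change of Cyp27a1 was -4.31 ± 0.71 (adjusted p = 9.2e-05, edgeR), and 244 of the tested genes fell further. After 25HC it went from 13.5, 40.8 and 17.2 CPM at rest to 1.21, 1.85 and 1.27 with PAM3, and in Ch25h-/- cells from 50.2, 227 and 68.3 to 3.77, 10.8 and 4.51. The respective log2 changes were -4.01 ± 0.72 and -4.17 ± 0.71 (adjusted p = 0.000222 and 0.000136, edgeR), again without overlap.

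With 25HC, Cyp27a1 was lower in every mouse, by 2.23-fold, 3.15-fold and 3.39-fold at rest and by 1.50-fold, 2.51-fold and 3.38-fold with PAM3. Groups overlapped both times. At rest the log2 difference was -1.60 ± 0.63 (adjusted p = 0.0724, edgeR) and with PAM3 -1.30 ± 0.68 (adjusted p = 0.133, edgeR), so neither passed. With the mouse as a replicate block both did, at -1.54 and -1.26 (adjusted p = 0.000822 and 0.00287, edgeR). In limma-voom with the animal as a random effect the difference passed at rest (adjusted p = 0.0274) but not with PAM3 (-1.27, adjusted p = 0.205). At rest it also passed without untreated mouse 1 (-1.97, adjusted p = 0.0352, edgeR) or without 25HC-treated mouse 2 (-2.24, adjusted p = 0.0299, edgeR). With PAM3 it passed with only the groups compared in the fit (-1.28, adjusted p = 0.0193, edgeR). In Ch25h-/- cells Cyp27a1 had a higher mean than in B6, 115 ± 97.4 against 72.2 ± 50.6 CPM (SD, n = 3) at rest and 6.36 ± 3.87 against 3.59 ± 1.54 with PAM3, with overlapping groups and no call (adjusted p = 0.985 and 0.624, edgeR). The 95% intervals of those log2 differences, -0.64 to 1.98 and -0.61 to 2.24, leave room for changes of either sign.

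Ch25h and Cyp27a1 also followed a fixed order of mouse numbers. Cyp27a1 was highest in mouse 2, then 3, then 1 in 6 of 6 groups, and mouse 2 exceeded mouse 1 by 4.26-fold, 3.02-fold, 2.56-fold and 1.52-fold in the B6 groups (at rest, 25HC, PAM3 and both) and by 4.53-fold and 2.87-fold in the Ch25h-/- groups. Ch25h took the mirror order, 1 then 3 then 2, in 4 of 4 B6 groups, with mouse 1 above mouse 2 by 6.45-fold, 2.51-fold, 2.13-fold and 1.51-fold. With a mouse number read as 1 animal, the 4 B6 groups hold the same 3 animals, so this is 1 set of animals seen 4 times. The labels do not state that reading outright. The Ch25h-/- mice are other animals that share only the numbers, and Cyp27a1 took the same order in them. Differences between animals and anything else tied to a number therefore cannot be told apart. Mouse 2 had the deepest library in 4 of 6 groups (B6 at rest, with PAM3 and with both, and Ch25h-/- with PAM3), the second deepest in B6 with 25HC and the shallowest in Ch25h-/- at rest. The neutrophil marker sum of Ch25h-/- at rest was 66.1 CPM in mouse 2 against 13.3 and 23.4, and in B6 at rest 4.74 against 4.48 and 6.09. The part of these values in the order was not tested.

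**Figure D2:**
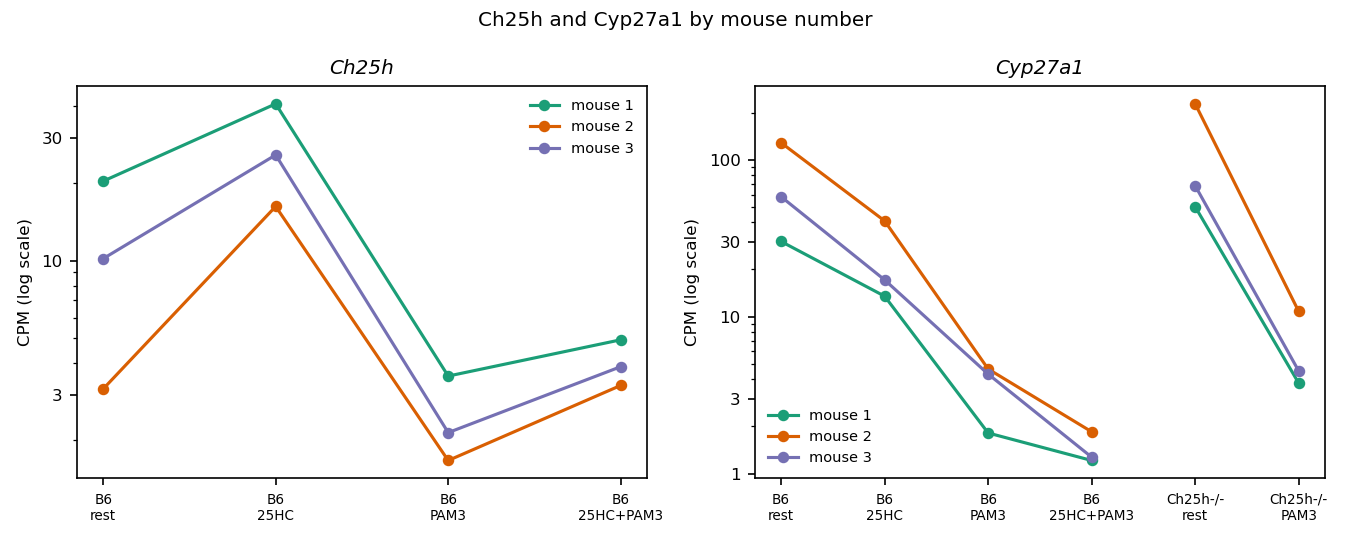
Ch25h in the 4 B6 groups and Cyp27a1 in all 6 groups, CPM on a log axis, with lines joining libraries of 1 mouse number within a genotype. Cyp27a1 runs 2, 3, 1 from high to low in each group, and Ch25h runs 1, 3, 2.

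Cyp7b1 (ENSMUSG00000039519, chr3:18071950-18243338, minus strand) supplies the further hydroxyl group that makes the Gpr183 ligand, and it was barely transcribed in these cells. No read fell on it in the 3 resting B6 libraries or in the 3 given 25HC. A count of 0 allows a level of up to 0.0197 and 0.0361 CPM over those groups (3 counts; counting error only). With PAM3 it had 5, 10 and 4 reads in untreated B6, which is 0.0883 CPM over the group (95% Poisson interval 0.0531 to 0.138). It had 2, 2 and 0 reads with 25HC and PAM3, 0, 1 and 0 in Ch25h-/- at rest, and 1, 3 and 0 in Ch25h-/- with PAM3. All 3 untreated PAM3 libraries were above every resting B6 library. When no filter on low counts was used and 19423 genes were tested, the PAM3 difference in untreated B6 had an adjusted p of 0.00536 (edgeR). The PAM3 differences in 25HC-treated B6 and in Ch25h-/- cells did not pass (adjusted p = 0.288 and 0.470, edgeR), nor did the one between 25HC and no 25HC with PAM3 (0.0534).

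Hsd3b7 (ENSMUSG00000042289, chr7:127800604-127803802, plus strand) oxidises the hydroxylated products and changed little. Its level was 58.4, 69.9 and 60.9 CPM in B6 at rest, and 47.4, 46.8 and 54.3 with PAM3. It was lower with PAM3 in each mouse, without overlap, and the log2 change of Hsd3b7 was -0.35 ± 0.09 (adjusted p = 0.00468, edgeR). With only those 2 groups in the fit the adjusted p was 0.0539. After 25HC the levels were 58.6, 67.5 and 58.8 CPM at rest and 45.5, 49.97 and 45.2 with PAM3, and in Ch25h-/- cells 66.1, 59.7 and 60.9 and then 43.5, 40.1 and 42.4. Both sets of groups stayed apart, with log2 changes of -0.39 ± 0.09 and -0.57 ± 0.10 (adjusted p = 0.00222 and 0.000116, edgeR). Between 25HC and no 25HC it differed by -0.03 ± 0.09 at rest and -0.08 ± 0.09 with PAM3, with 95% intervals of -0.23 to 0.17 and -0.28 to 0.12. Ch25h-/- cells with PAM3 lay below B6 cells with PAM3 in all 3 libraries, by a log2 difference of -0.24 ± 0.09 that did not pass (adjusted p = 0.264, edgeR). In GENCODE M21 the gene 9430064I24Rik on the minus strand and Gm49388 on the plus strand share 1729 and 1717 exon bases with Hsd3b7. Neither is a row of the table, and the labels do not say how such reads were assigned.

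Gpr183 (ENSMUSG00000051212, chr14:121952551-121965195, minus strand), the receptor, was more than 10-fold lower under PAM3 in every mouse. It stood at 42.6, 32.4 and 40.5 CPM in B6 at rest and at 3.40, 2.73 and 3.77 with PAM3. All resting libraries were above all PAM3 libraries, by 12.5-fold, 11.9-fold and 10.8-fold in mice 1, 2 and 3. The log2 change of Gpr183 was -3.56 ± 0.26 (adjusted p = 4.7e-08, edgeR). After 25HC the levels were 35.4, 42.8 and 39.6 CPM at rest and 2.58, 2.80 and 3.01 with PAM3 (log2 change -3.81 ± 0.26, adjusted p = 2.7e-08, edgeR). In Ch25h-/- cells they were 43.9, 31.3 and 56.4 CPM and 2.58, 0.959 and 1.86 (log2 change -4.62 ± 0.29, adjusted p = 9.6e-09, edgeR). For 25HC the log2 difference of Gpr183 was 0.03 at rest (95% interval -0.46 to 0.52) and -0.23 with PAM3 (-0.76 to 0.30), and neither passed.

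Lymphocytes also carry Gpr183, so their markers are given beside it. Of 7 T and NK cell markers, Cd3e and Cd3g had no read in any library, and the sum of the list, nearly all of it Cd4, was 10.97 to 26.3 CPM in B6 at rest and 1.15 to 1.94 with PAM3. It was 4.24 to 9.29 and 0.231 to 0.442 CPM in 25HC-treated B6, and 8.76 to 56.1 and 1.00 to 2.44 in Ch25h-/- cells, so it was lower with PAM3 without overlap in all 3 pairs. The B cell list, mostly Cd79b and Cd22, summed to 13.8 to 20.2 CPM at rest and 8.89 to 19.0 with PAM3 in untreated B6, to 7.09 to 11.7 and 2.09 to 3.36 in 25HC-treated B6, and to 17.2 to 20.8 and 16.7 to 28.0 in Ch25h-/- cells. It was lower with PAM3 without overlap in 25HC-treated B6 and overlapped in the other pairs. The dendritic cell list summed to 1.21 to 2.72 CPM at rest and 2.45 to 3.09 with PAM3 in untreated B6. Its sums were 0.965 to 1.46 and 4.79 to 5.64 CPM in 25HC-treated B6. In Ch25h-/- cells they were 1.14 to 4.59 and 1.67 to 2.05 CPM. That list was higher with PAM3 without overlap in 25HC-treated B6 and overlapped in the other pairs. Macrophage markers summed to 25415 to 32496 CPM at rest and to 46207 to 60021 with PAM3 in untreated B6. The part of these levels in the Gpr183 change was not tested.

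Gpr183 was lower in Ch25h-/- cells than in B6 cells once PAM3 was present, 1.80 ± 0.81 against 3.30 ± 0.53 CPM (SD, n = 3). The groups did not overlap, and the log2 difference was -0.87 ± 0.28, with an unadjusted p of 0.00659 and an adjusted p of 0.157 (edgeR), so it did not pass over all genes. Without Ch25h-/- mouse 1 with PAM3 it did (log2 -1.22, adjusted p = 0.0485, edgeR), and without mouse 2 of that group the log2 difference was -0.56 (adjusted p = 0.664, edgeR). At rest it was 0.19 ± 0.23, and the difference between the genotypes in the PAM3 response was -1.06 ± 0.36 (adjusted p = 1.00, edgeR). Ch25h-/- libraries with PAM3 had a neutrophil marker sum of 10.9 to 21.5 CPM against 4.93 to 9.31 in B6, and totals of 22257303 to 24119611 counts against 39966508 to 150440297. Their part in the Gpr183 and Hsd3b7 differences was not tested.

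Gpr183 lies inside Ubac2, a gene of the other strand with which it shares 0 exon bases, and next to Gpr18, another receptor for a lipid ligand. Ubac2 was higher with PAM3 in untreated B6 (63.0 ± 8.19 against 35.6 ± 3.80 CPM, log2 0.82 ± 0.13, adjusted p = 6.1e-05, edgeR). Gpr18 went from 0.371, 1.10 and 0.561 CPM at rest to 46.3, 48.6 and 51.7 with PAM3. Every PAM3 library exceeded every resting library, with a log2 change of Gpr18 of 6.08 ± 0.48 (adjusted p = 8.7e-08, edgeR), the opposite direction to Gpr183. In 25HC-treated and in Ch25h-/- cells the Gpr18 change was 6.21 ± 0.51 and 5.16 ± 0.49. Ubac2 is named here after its values were seen.

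**Figure D3:**
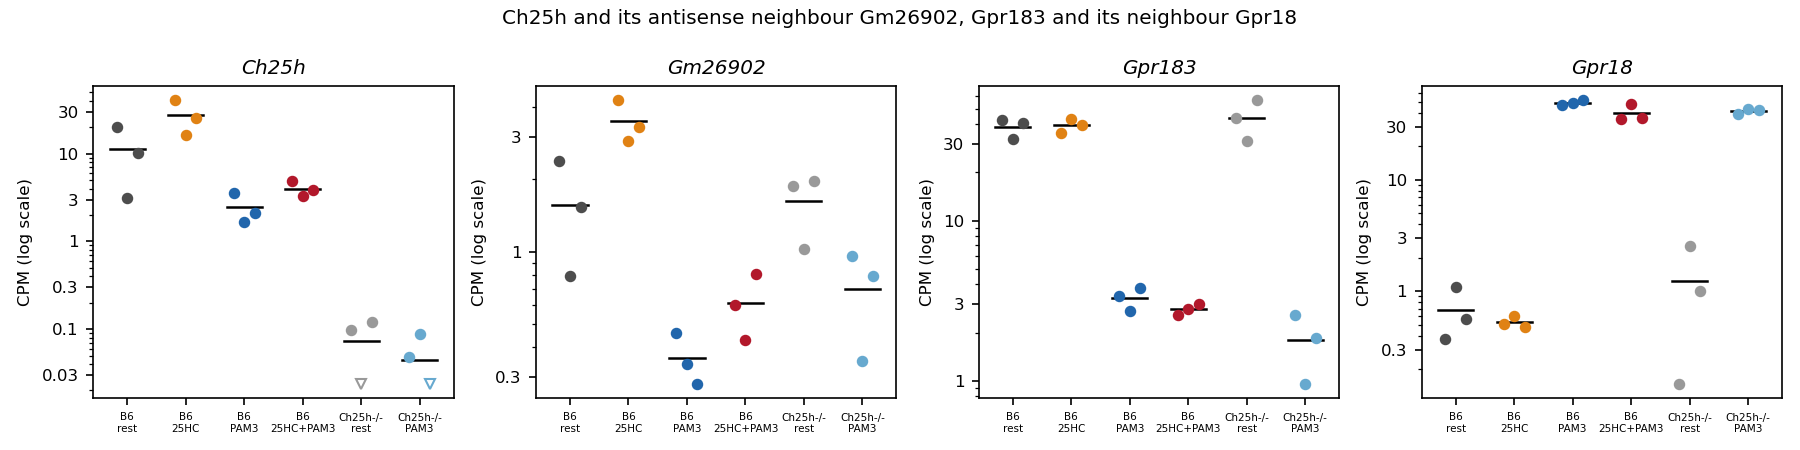
Ch25h with its antisense neighbour Gm26902 and Gpr183 with its neighbour Gpr18, CPM on log axes, with 1 point a library, lines for group means and open triangles, drawn below the lowest value, for libraries without a read. Gm26902 has reads in all 6 Ch25h-/- libraries, where Ch25h is nearly absent, and Gpr18 is high in the PAM3 groups where Gpr183 is low.

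Osbp (ENSMUSG00000024687, chr19:11965941-11994112, plus strand) binds 25HC in the cytosol. It was the one member that passed the main test for 25HC, which did not pair libraries by mouse. With the mouse as a replicate block, Ch25h and Cyp27a1 passed too at rest, and Cyp27a1 with PAM3. Osbp was at 83.1, 75.4 and 86.7 CPM in B6 at rest and at 116, 109 and 116 with 25HC. With PAM3 it was at 109, 110.5 and 109 without 25HC and at 175, 175 and 172 with it. No groups overlapped in either pair, and within mice 25HC gave 1.40-fold, 1.45-fold and 1.34-fold at rest and 1.60-fold, 1.58-fold and 1.58-fold with PAM3. The log2 changes of Osbp were 0.48 ± 0.07 and 0.67 ± 0.07 (adjusted p = 0.000484 and 7.0e-06, edgeR). PAM3 raised it as well, by 0.42 ± 0.07 in untreated and 0.61 ± 0.07 in 25HC-treated B6 cells (adjusted p = 0.000140 and 5.3e-06, edgeR). In Ch25h-/- cells it rose from 88.2, 81.3 and 81.7 CPM to 111, 114 and 115, a log2 change of 0.44 ± 0.07 (adjusted p = 0.000115, edgeR).

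The 25HC change of Osbp was larger with PAM3 than at rest by 0.19 ± 0.10 on the log2 scale, which did not pass (adjusted p = 0.181, edgeR) but did with DESeq2 (0.22, adjusted p = 0.0474). Between Ch25h-/- and B6 cells the log2 difference of Osbp was 0.04 at rest (95% interval -0.12 to 0.19) and 0.05 with PAM3 (-0.10 to 0.21, in groups that did not overlap), and neither passed. Its spread between mice, as a coefficient of variation, was the lowest of the tested members in 6 of 6 groups (0.844 to 7.06%). Osbp and Ch25h lie 22.48 Mb apart on chromosome 19.

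**Figure D4:**
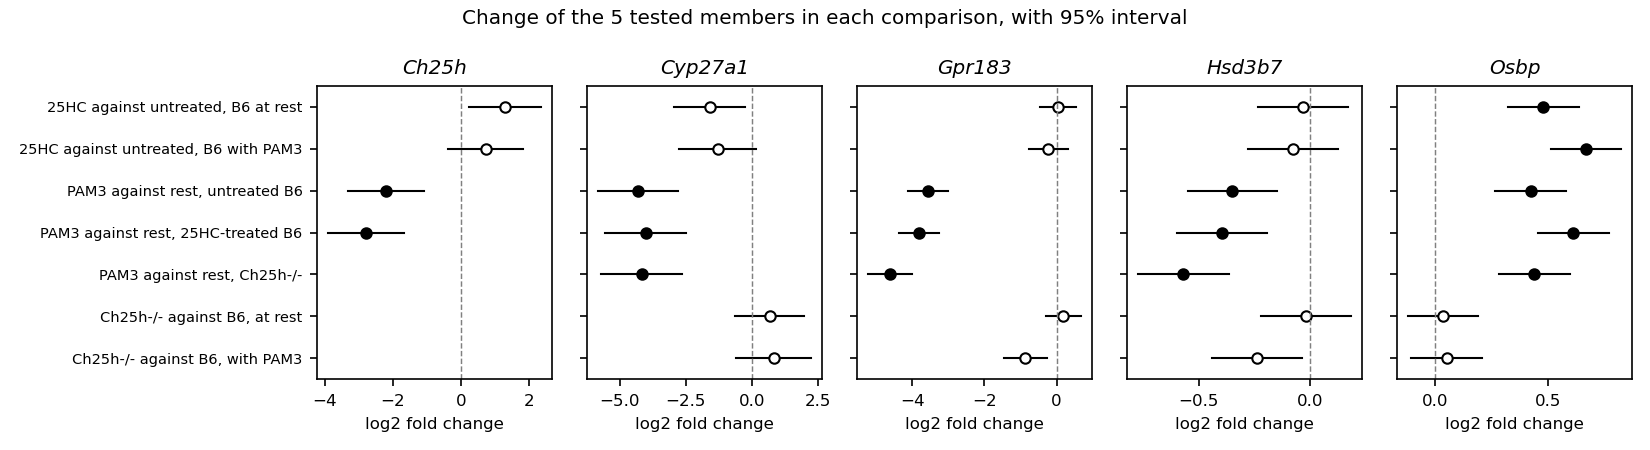
Log2 fold change of the 5 tested members in 7 comparisons between groups, with 95% intervals; filled points passed an adjusted p of 0.05 and open points did not, and each panel has its own scale. Ch25h is left out where Ch25h-/- cells take part. All 3 PAM3 responses are filled in every panel they appear in, and only Osbp is filled for 25HC. The fit shown has no mouse block.

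Counts over the members are read against the share of all 12741 tested genes that passed. For 25HC, 1 of 5 tested members passed at rest (Osbp, higher), where 26.2% of all genes passed, and 1 of 5 with PAM3 (Osbp, higher), where 45.1% did. With the mouse as a replicate block these counts were 3 and 2, and the shares of all genes 32.9% and 50%. For PAM3, 5 of 5 passed in untreated B6 (62.1% of all genes) and 5 of 5 in 25HC-treated B6 (58.9%), with 4 lower and Osbp higher each time. In Ch25h-/- cells 4 of 5 passed, 3 lower and Osbp higher (62% of all genes). Between genotypes only the deleted gene itself passed, at rest (0.00785% of all genes, that is Ch25h alone) and with PAM3 (0.173%, 22 genes). The count of 22 ran from 1, without Ch25h-/- mouse 3 with PAM3, to 248, without mouse 1 of that group, was 3 without B6 mouse 1, B6 mouse 3 or Ch25h-/- mouse 2, and 85 without B6 mouse 2. At rest the count of 1 was 0 without Ch25h-/- mouse 3 and 4 without Ch25h-/- mouse 1. At rest and with PAM3, 1 and 3 of the 5 tested members had an unadjusted p under 0.05, against 5.53% and 14% of all genes. The 1 at rest was Ch25h, and the 3 with PAM3 were Ch25h, Hsd3b7 and Gpr183. Both counts thus include the deleted gene, whose difference was fixed by the genotype.

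No member passed the test of whether 25HC changed the PAM3 response (0 of 5, against 28.3% of all genes), and 0 had an unadjusted p under 0.05, while DESeq2 called 1, Osbp. For the test of whether genotype changed the PAM3 response, edgeR called 0 of 5 members and 0% of all genes. At an unadjusted p under 0.05 there were 1 member, Gpr183, and 598 of all genes (4.69%), and DESeq2 called 0 members and 2 genes. The comparisons share libraries: untreated cells at rest serve the 25HC, PAM3 and genotype comparisons, and untreated cells with PAM3 serve the same 3. Likeness between such comparisons was therefore not measured.

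Between genes, levels can be compared only per length, here as RPKM, the CPM per kilobase of exon. In B6 at rest the order was Cyp27a1 (33.2 ± 23.3), Hsd3b7 (22.8 ± 2.18), Osbp (18.2 ± 1.28), Gpr183 (13.3 ± 1.86), Ch25h (8.11 ± 6.2) and Cyp7b1 at 0 (SD, n = 3). The spread of Cyp27a1 covered its next neighbours, and that of Ch25h covered Gpr183. With PAM3 the order became Osbp (24.4 ± 0.21), Hsd3b7 (17.9 ± 1.51), Ch25h (1.77 ± 0.71), Cyp27a1 (1.65 ± 0.71), Gpr183 (1.14 ± 0.18) and Cyp7b1 (0.048 ± 0.013). Osbp and Hsd3b7 were then clear of the rest, while Ch25h, Cyp27a1 and Gpr183 lay within their spread of each other.

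The genes whose level tracked each member most closely over the libraries were found by Pearson correlation of log2 CPM among 9827 genes, as a description. For Cyp27a1 they were Ctdsp2 (r = 0.986), Vmac (0.986) and Fmo5 (0.985), and for Gpr183 St14 (0.993), Lsp1 (0.989) and Cdc25b (0.986). Hsd3b7 was closest to Naglu (0.975), Mpdu1 (0.963) and Klc4 (0.961), and Osbp to Acbd3 (0.990), Gnl2 (0.986) and Sec23a (0.982). Ch25h, over the 12 B6 libraries, was closest to Syne1 (0.982), St3gal6 (0.972) and Rps6ka2 (0.970). The others rest on 18 libraries, and all points share the 6 groups and the 3 mouse numbers.

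The rest of the oxysterol pathway was taken from 6 lists with 79 genes, all in the table, of which 63 were tested. Their counts are read against all tested genes. PAM3 raised 31.3% and lowered 30.8% of those in untreated B6, 28.5% and 30.4% in 25HC-treated B6, and 29.9% and 32.1% in Ch25h-/- cells. For 25HC, 14.8% were higher and 11.4% lower at rest, and 21.5% and 23.6% with PAM3. Oxysterols feed into bile acids, and 7 of the 16 genes listed for that route were tested. With 25HC, 2 of them were lower and 0 higher, both at rest and with PAM3 (median log2 change -0.27 and -0.29, against -0.01 and -0.04 over all genes). The 2 were the same, the peroxisomal enzymes of side chain shortening Hsd17b4 (121 ± 1.38 against 88.9 ± 5.11 CPM at rest) and Scp2 (76.9 ± 3.61 against 56.5 ± 4.81). Hsd17b4 changed by -0.45 ± 0.09 and -0.65 ± 0.09 and Scp2 by -0.44 ± 0.10 and -0.70 ± 0.10 on the log2 scale (adjusted p from 5.2e-05 to 0.00562, edgeR). Under PAM3, 2 rose and 2 fell in untreated B6, among them Cyp39a1, a hydroxylase of 24-hydroxycholesterol, from 0.904 ± 0.108 to 0.078 ± 0.031 CPM (log2 change -3.54 ± 0.57, adjusted p = 7.1e-05, edgeR).

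Hydroxylases need electrons and cholesterol, and all 10 genes listed for that supply were tested. PAM3 raised 6 and lowered 0 of them in untreated B6 (median log2 change 0.66, against 0.00 over all genes) and 5 and 0 in Ch25h-/- cells. In 25HC-treated B6 it raised 3 and lowered 3 (median 0.06, against -0.02), among them Fdxr, the reductase of the mitochondrial P450 enzymes, which was lower (log2 change -0.64 ± 0.13, adjusted p = 0.00074, edgeR). Por, the reductase that feeds microsomal P450 enzymes, went from 187 ± 29.4 to 419 ± 85.6 CPM, and Stard5, a sterol carrier, from 21.8 ± 3.03 to 84.9 ± 3.80. Their log2 changes were 1.16 ± 0.15 and 1.96 ± 0.17 (adjusted p = 1.2e-05 and 1.9e-07, edgeR). With 25HC on top of PAM3, 7 of the 10 were lower and 0 higher. Stard4, which carries cholesterol in the cytosol, stood at 123, 113 and 84.5 CPM with PAM3 and at 10.2, 10.9 and 9.71 with PAM3 and 25HC (log2 change -3.38 ± 0.46, adjusted p = 3.7e-05, edgeR). Those groups did not overlap.

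Of 10 tested genes among 13 that modify oxysterols in other ways, PAM3 raised 7 and lowered 0 in untreated B6, and 25HC with PAM3 raised 1 and lowered 6. Medians were 1.50 and -1.54 on the log2 scale, against 0.00 and -0.04 over all genes. In 25HC-treated B6, PAM3 raised 3 and lowered 2, the sterol synthesis enzymes Dhcr7 (log2 change -2.08 ± 0.33, adjusted p = 7.9e-05, edgeR) and Ebp (-0.69 ± 0.11, adjusted p = 5.4e-05, edgeR), and in Ch25h-/- cells it raised 6 and lowered 1. Hsd11b1, a reductase of 7-ketocholesterol and of glucocorticoids, was at 0.062, 0.084 and 0.021 CPM at rest and at 1.63, 2.40 and 2.25 with PAM3 (log2 change 5.11 ± 0.52, adjusted p = 1.0e-06, edgeR). Soat2, an acyltransferase that esterifies sterols, was higher with 25HC at rest, at 15.8, 8.43 and 12.5 against 1.24, 0.516 and 0.686 CPM (log2 change 3.97 ± 0.39, adjusted p = 2.1e-05, edgeR). Both genes had groups without overlap.

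Of 12 tested sensors of oxysterols among 14, PAM3 raised 2 and lowered 8 in untreated B6 (median log2 change -0.56, against 0.00 over all genes), the same counts were found in Ch25h-/- cells, and in 25HC-treated B6 2 rose and 5 fell. Nr1h3, the liver X receptor alpha gene, was one of the 2 that rose, from 10.4, 11.7 and 11.5 CPM to 84.2, 104 and 102 (log2 change 3.11 ± 0.18, adjusted p = 4.3e-09, edgeR). With 25HC and PAM3 it stood at 26.8, 41.8 and 24.8 CPM, lower than with PAM3 alone by 1.64 ± 0.17 on the log2 scale (adjusted p = 3.5e-06, edgeR). Rora, an orphan receptor that binds sterols, did the reverse, with 31.6 ± 1.54 CPM at rest, 5.86 ± 2.23 with PAM3 and 22.7 ± 3.62 with both.

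Osbp works with relatives and partners at membrane contact sites. Of 16 tested genes among 17, 25HC raised 0 and lowered 1 at rest and raised 2 and lowered 5 with PAM3, and the medians were -0.13 and -0.03 on the log2 scale, against -0.01 and -0.04 over all genes. Osbpl11, a relative of Osbp, was the 1 that fell at rest, from 106, 162 and 125 to 49.6, 78.3 and 54.0 CPM (log2 change -1.11 ± 0.16, adjusted p = 0.000378, edgeR). Gramd1a, which moves cholesterol from the plasma membrane inward, rose with PAM3 from 69.7 ± 10.7 to 440 ± 63.7 CPM and was lower with PAM3 and 25HC, at 159.9 ± 35.6. The log2 changes of Gramd1a were 2.66 ± 0.16 and -1.46 ± 0.15 (adjusted p = 6.0e-09 and 4.3e-06, edgeR). Pi4kb, whose lipid product Osbp exchanges for cholesterol, was lower with 25HC and PAM3 than with PAM3 alone (log2 -0.56 ± 0.07, adjusted p = 2.2e-05, edgeR). PAM3 raised 7 and lowered 6 of the 16 in untreated B6, 5 and 6 in 25HC-treated B6, and 6 and 7 in Ch25h-/- cells.

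**Figure D5:**
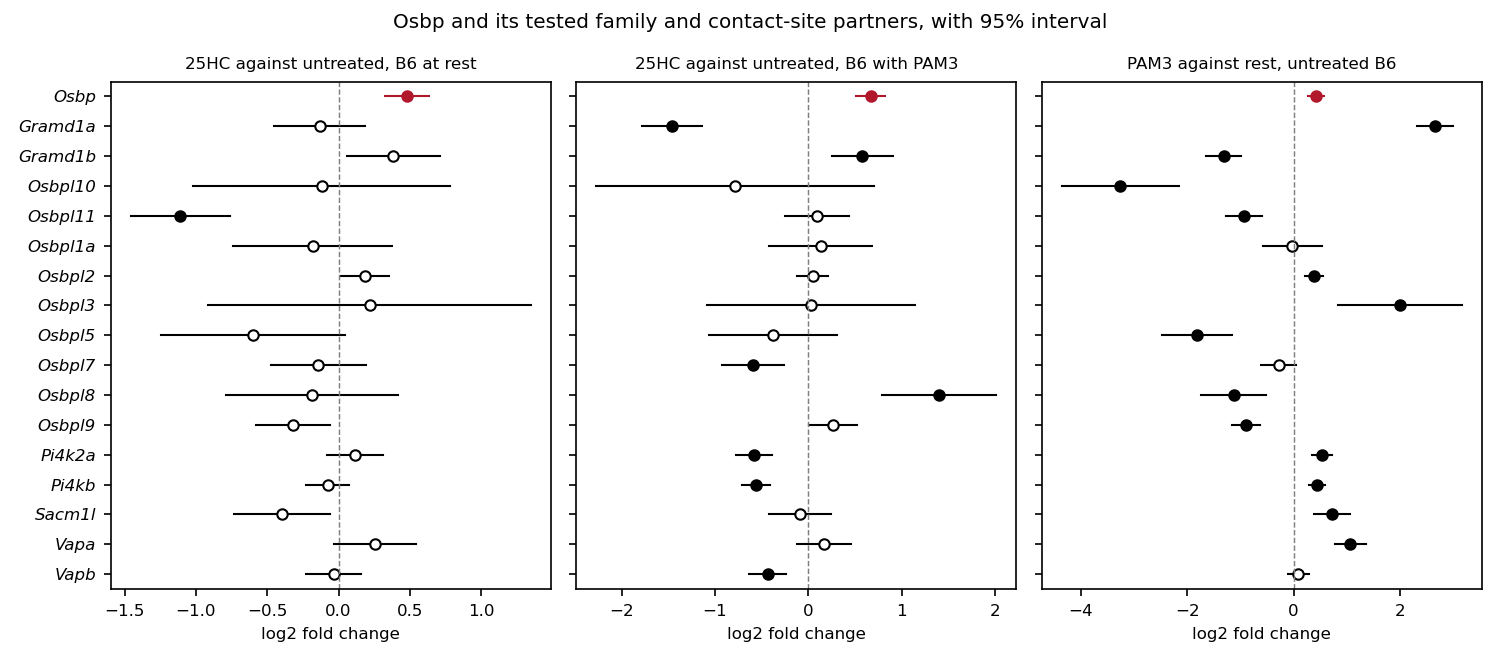
Log2 fold change of Osbp (red) and of the 16 tested family members and contact-site partners (black) in 3 comparisons, with 95% intervals; filled points passed an adjusted p of 0.05. Osbp is the one filled point to the right of 0 for 25HC at rest, and Osbpl11 the one to the left.

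Receptors for other chemotactic lipids, with Gpr18 among them, gave 8 tested genes of 9. PAM3 lowered 5 and raised 3 in untreated B6, lowered 3 and raised 2 in 25HC-treated B6, and lowered 5 and raised 2 in Ch25h-/- cells (median log2 change -0.60, -0.30 and -0.87, against 0.00, -0.02 and -0.04 over all genes). S1pr1, the sphingosine 1-phosphate receptor that guides exit from lymphoid tissue, fell as Gpr183 did, from 134, 125 and 133 CPM at rest to 17.3, 10.5 and 16.4 with PAM3 (log2 change -3.16 ± 0.20, adjusted p = 8.5e-09, edgeR). Unlike Gpr183, S1pr1 was higher with 25HC and PAM3 than with PAM3 alone, at 65.8, 57.1 and 65.2 CPM (log2 change 2.10 ± 0.19, adjusted p = 1.2e-06, edgeR). Ptafr, the receptor for platelet-activating factor, was also lower with PAM3 and higher when 25HC was added to it, with 318 ± 59.5 CPM at rest, 72.8 ± 9.55 with PAM3 and 193 ± 18.2 with both. The change of S1pr1 and Ptafr with 25HC differed between rest and PAM3 (interaction term 2.10 ± 0.26 and 1.97 ± 0.23, adjusted p = 0.000166 and 0.000121, edgeR), while that of Gpr183 was -0.26 ± 0.34 (adjusted p = 0.597).

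Between Ch25h-/- and B6 cells, edgeR called 0 of the 63 tested list genes at rest and 0 with PAM3. At an unadjusted p under 0.05 there were 3 and 12, beside 5.53% and 14% of all genes, and DESeq2 called 0 and 2.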

How the data were processed

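RNA of 18 macrophage libraries was counted per gene, and the authors deposited 1 table of raw counts. Per the submitters' processing notes, FastQC 0.11.9, GSNAP, featureCounts of Subread 1.5.2, edgeR 3.26.8 and GRCm38 (mm10) were used. The libraries were polyA RNA made with a stranded kit, per the labels. Strand setting, treatment of multi-mapped reads and annotation release are not stated in the labels. Of 30530 rows, 30118 had their ID in GENCODE M21, the source of the positions given.

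The 9 comparisons came from 1 model of the 6 groups in edgeR 4.0.16 (R 4.3.3), with TMM factors, filterByExpr, its quasi-likelihood F test in robust mode (12 residual degrees of freedom) and Benjamini-Hochberg adjustment over 12741 tested genes. A gene was called at an adjusted p below 0.05. The biological coefficient of variation was 0.192. Each SE was obtained from the size of a log2 fold change and its F statistic. Intervals for counts are exact Poisson or binomial ones at 95% and cover counting error only, since no molecular identifiers are stated. Libraries held 14040513 to 150440297 counts, so low genes are least precise in Ch25h-/- at rest. The fit was tested on simulated counts. Alternatives were DESeq2 1.42.0, limma 3.58.1 voom, other filters and scaling, each library left out, and a replicate block. That block was the animal within a genotype, or the mouse number where Ch25h-/- was compared with B6.

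Within a genotype, libraries with the same mouse label were read as coming from 1 animal, which the labels do not state outright. Deviations of same-numbered libraries correlated at 0.348 to 0.581 between untreated and 25HC-treated cells at rest, at -0.162 to 0.406 between those with PAM3, at -0.0777 to 0.306 between untreated rest and PAM3, at 0.114 to 0.211 between 25HC-treated rest and PAM3, and at 0.193 to 0.242 in Ch25h-/- cells. Across genotypes only a number is shared (0.327 to 0.705 at rest, 0.0949 to 0.459 with PAM3). No 2 libraries of the same group were duplicates within sampling noise, and pairs from different groups were not checked.

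The members and gene lists were chosen with earlier results of these data known. Beyond the 6 members, the genes named were, for each list and comparison, up to 2 with the smallest adjusted p below 0.05, values of such a gene in other comparisons, and the 3 genes most correlated with each member among those averaging 5 CPM or more in some group (log2 CPM, prior count 2). Gm26902, Ubac2 and the use of Gpr18 in untreated and Ch25h-/- cells were added after their values were seen. Promoter windows are RefSeq GRCm38.p6.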

Additional observations from a re-analysis of the deposited data

How the results depend on the processing

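Leaving out Ch25h in the comparisons with Ch25h-/- cells, there were 628 member values under other settings. Of these, 612 stayed on their side of the threshold, with 28 uncalled ones at the opposite sign, 15 newly passed, 1 no longer passed (Hsd3b7 under PAM3 with only the groups compared) and 0 called values reversed. The call of Ch25h between genotypes was lost under 4 of 14 settings at rest and 7 of 14 settings with PAM3, with 0 changes of direction. The count of members called for 25HC at rest, 1, became 3 with the mouse as a replicate block and 3 in limma-voom with the animal as a random effect, and ranged from 1 to 3 with libraries left out. With PAM3 it went from 1 to 2 under the replicate block and to 2 with only the groups compared, and ranged from 1 to 2 with libraries left out. Between genotypes the count of 1, Ch25h itself, was 0 at rest with only the groups compared and 0 in limma-voom (0 to 1 with libraries left out). With PAM3 it was 0 with no filter on low counts, 0 with only the groups compared and 0 in limma-voom (0 to 2 with libraries left out). DESeq2 gave 1 call, Osbp, for the interaction of 25HC and PAM3, where edgeR gave 0. For the genotype comparisons the replicate block was the mouse number, which joins different B6 and Ch25h-/- animals, not the animal as elsewhere. Over all genes, the genotype comparison called 1 gene at rest in edgeR, 21 in DESeq2 and 14 with that block. With PAM3 the counts were 22, 404 and 368. The cause of these differences was not tested. Ch25h had 4 and 3 reads over the Ch25h-/- groups, and Cyp7b1 19 at most in a group, so depth limits both.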
